A study of Mus musculus with 4 samples.

Results

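RNA polymerase I makes the large ribosomal RNA precursor, and the 10 genes described here encode 5 of its subunits and 5 factors that start or stop that transcription. The members were taken by name: the subunit genes Polr1a, Polr1b, Polr1c, Polr1d and Polr1e, the initiation factor genes Ubtf, Rrn3, Taf1b and Taf1c, and the termination factor gene Ttf1. All 10 are among the 12390 genes of the deposited table, and all 10 passed the filter of a mean of at least 1 RPKM that left 11742 genes for testing. The choice used no threshold on measured values, but it was made with earlier results of these data known.

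The cells were mouse bone marrow hematopoietic stem cells, sorted as Lin-Sca-1+c-Kit+CD48-CD150+ with about 5000 cells per library, and their polyadenylated RNA was copied with a Smart-Seq V4 Ultra Low Input kit. The 2 control libraries came from mice with floxed Ddx21 alleles, written Ddx211fl/fl in the design text and given the genotype WT. The 2 knockout libraries came from mice that carry the same floxed alleles together with CAG-CreERT2, a tamoxifen-dependent Cre under a promoter active in most tissues, which does not limit deletion to blood cells, and they have the genotype KO. The sources used here give no strain, age, tamoxifen schedule or number of animals per library. The p-values therefore rest on spread between these libraries, which may be technical. The limma fit of the deposited values took that spread from a trend over all tested genes and not from each gene alone. The comparison addresses what changes in these cells when Ddx21 is targeted for deletion. Ddx21 is a nucleolar RNA helicase with known roles in ribosomal RNA transcription and processing, and its remaining RNA is given below. The Cre is described only for the knockout mice, so its own effects cannot be told apart from those of the deletion.

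Ribosomal DNA lies in repeated copies inside the nucleolus, and its transcription sets how many ribosomes a cell can build. Upstream binding factor (Ubtf) coats the active copies. Selectivity factor SL1, built from TATA-binding protein and the Taf1 subunits, marks the promoter, and Rrn3 ties initiation-ready polymerase to SL1. Ttf1 binds terminator sites behind and in front of the transcribed unit. Blood stem cells that are at rest are known for a low rate of protein synthesis, and Rrn3 is the step through which growth signals are best known to adjust ribosomal RNA output.

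The stretches before the annotated starts of 3 members are shown, one for the catalytic subunit, one for the growth-regulated recruitment factor and one for the SL1 subunit with the highest fold change. They were read from RefSeq (GRCm38.p6), 5′ to 3′ on the gene's strand, without bases in an annotated exon. Capitals mark matches on either strand to an E-box (CACGTG), an ETS core (CCGGAA), a GC box (GGGCGG) or a CCAAT box (CCAAT), motifs chosen after the sequences were read. The Polr1a stretch is chr6:71908803-71909052, plus strand. That of Rrn3 is chr16:13780449-13780698, plus strand. That of Taf1c is chr8:119605223-119605456, minus strand.
Polr1a: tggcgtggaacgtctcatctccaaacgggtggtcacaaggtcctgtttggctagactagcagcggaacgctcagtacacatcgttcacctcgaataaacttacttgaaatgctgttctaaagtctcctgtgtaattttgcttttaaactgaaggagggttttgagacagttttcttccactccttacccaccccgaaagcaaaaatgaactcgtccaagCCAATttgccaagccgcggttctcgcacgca
Rrn3: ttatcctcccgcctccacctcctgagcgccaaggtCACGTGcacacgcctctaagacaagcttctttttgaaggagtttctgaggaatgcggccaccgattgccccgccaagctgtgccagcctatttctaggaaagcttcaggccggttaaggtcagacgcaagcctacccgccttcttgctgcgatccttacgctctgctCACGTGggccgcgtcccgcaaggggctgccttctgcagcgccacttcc
Taf1c: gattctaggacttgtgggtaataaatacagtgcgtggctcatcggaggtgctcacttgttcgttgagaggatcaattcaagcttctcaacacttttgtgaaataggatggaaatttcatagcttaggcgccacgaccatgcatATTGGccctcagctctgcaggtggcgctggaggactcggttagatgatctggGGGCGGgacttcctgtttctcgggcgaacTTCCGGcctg

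A window of 250 bases before the start was found for all 10 members, with 16 windows in all because some genes have several starts. Rrn3 carried 2 E-box matches, which begin 215 and 48 bases before its RefSeq start, and the windows of the other 9 members held none. Of all 32851 such windows, 6.02% held an E-box, 12.0% an ETS core, 32.7% a GC box and 33.8% a CCAAT box. Outside the genes shown above, GC boxes lay in windows of Polr1b, Polr1c, Polr1e and Ubtf. ETS cores lay in those of Polr1c, Taf1b and Ttf1, and CCAAT boxes in those of Ubtf and Ttf1. The first Taf1c window held 2 ETS cores, 1 GC box and 1 CCAAT box, 1 of the ETS cores being in the part not printed, while the Polr1a window held a single CCAAT box 31 bases before the start. A match describes these letters and is not a binding site.

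The deposited values are RPKM, reads per kilobase of a gene's longest transcript and scaled to the library total, so levels can be set against each other between genes. The libraries held between 43198649 and 62853207 reads, recovered from the values. Ddx21 itself stood at 11.0 and 12.1 RPKM in the controls and at 6.20 and 6.60 RPKM in the knockouts, a log2 fold change of -0.76 (SE 0.30, limma adjusted p = 0.158) that was not past the threshold. Most genes were shifted, with a median over the whole tested table of 0.31 on the log2 scale. Against the control mean the shift was 0.12 in the first knockout library and 0.50 in the second. Rescaling by TMM-type factors, which centre the bulk of genes, brought the median to 0.02, and changes of the 10 members are therefore given on both scales. Rescaled, Ddx21 had -1.07 (adjusted p = 0.0971). Of the stem cell markers, 8 of 9 were in the table, with a summed level of 181 to 229 RPKM in control and 279 to 352 RPKM in knockout libraries, and Fgd5 was not listed. All 8 neutrophil and monocyte markers were listed, and their sum was 53000 to 54200 RPKM in control and 23400 to 36900 RPKM in knockout libraries. For bone and stroma markers (5 of 8 listed, without Cxcl12, Lepr and Cdh5) the sum was 204 to 342 RPKM in control and 1290 to 4840 RPKM in knockout libraries, replicate 1 being the higher. B cell markers (4 of 5 listed, without Pax5) summed to 18.6 to 22.8 and 28.0 to 40.3 RPKM, and erythroid markers (4 of 4) to 128 to 135 and 74.3 to 130.0 RPKM, in control and knockout libraries. Of the T and NK cell markers only Nkg7 was listed (1230 and 1320 RPKM in control, 884 and 750 RPKM in knockout), without Cd3e, Cd3g and Cd8a. The part of these other cells in the results below was not tested, and in bulk RNA fewer cells of a type and less RNA per cell cannot be told apart.

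None of the 10 polymerase I genes passed the test in either direction (limma, adjusted p under 0.05), where 3.33% of all tested genes were called higher and 0.86% lower. All 10 had a log2 fold change above 0, as did 9762 of the 11742 tested genes. They ran from 0.10 for Ubtf to 0.57 for Taf1c, with a median of 0.42 beside 0.31 for all genes. At an unadjusted p under 0.05 the count was 1 of 10, against 1908 of 11742 genes. Voom on recovered reads also called 0 of the 10, beside 52 higher and 22 lower of 11734 genes. Both knockout libraries stood above both controls for 7 of the 10, beside 55.5% of all tested genes. After rescaling 7 of the 10 were above 0, beside 6220 of 11742 genes, and the median was 0.12, beside 0.02 for all genes. Limma then called 0 of the 10, beside 1 of 11742 genes. An unadjusted p under 0.05 was found for 0 of the 10, beside 1878 of 11742 genes.

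The order of levels was steep. The small shared subunit gene Polr1d had the highest mean over the 4 libraries (64.9 RPKM), followed by Polr1c (39.0), Ubtf (18.3), Polr1b (15.0), Rrn3 (13.6), Taf1b (12.5), Polr1e (10.5), Taf1c (4.60), Ttf1 (4.58) and Polr1a (3.62 RPKM). Polr1d and Polr1c stood apart from each other and from Ubtf in every library, with ranges over the 4 libraries that did not overlap. From Ubtf down to Polr1e each neighbouring pair had overlapping ranges, although the upper gene was higher within 4 of 4 libraries for every pair except Rrn3 and Taf1b (3 of 4). The range of Polr1e did not reach down to that of Taf1c. Taf1c and Ttf1 were not separable, with Taf1c higher in 3 of 4 libraries and ranges of 3.26 to 6.96 and 3.52 to 6.32 RPKM. Polr1a was below Ttf1 in 4 of 4 libraries, with a range of 2.83 to 5.23 RPKM that overlapped that of Ttf1. Levels of genes whose main transcript is shorter than the longest annotated one are understated by this unit.

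**Figure D1:**
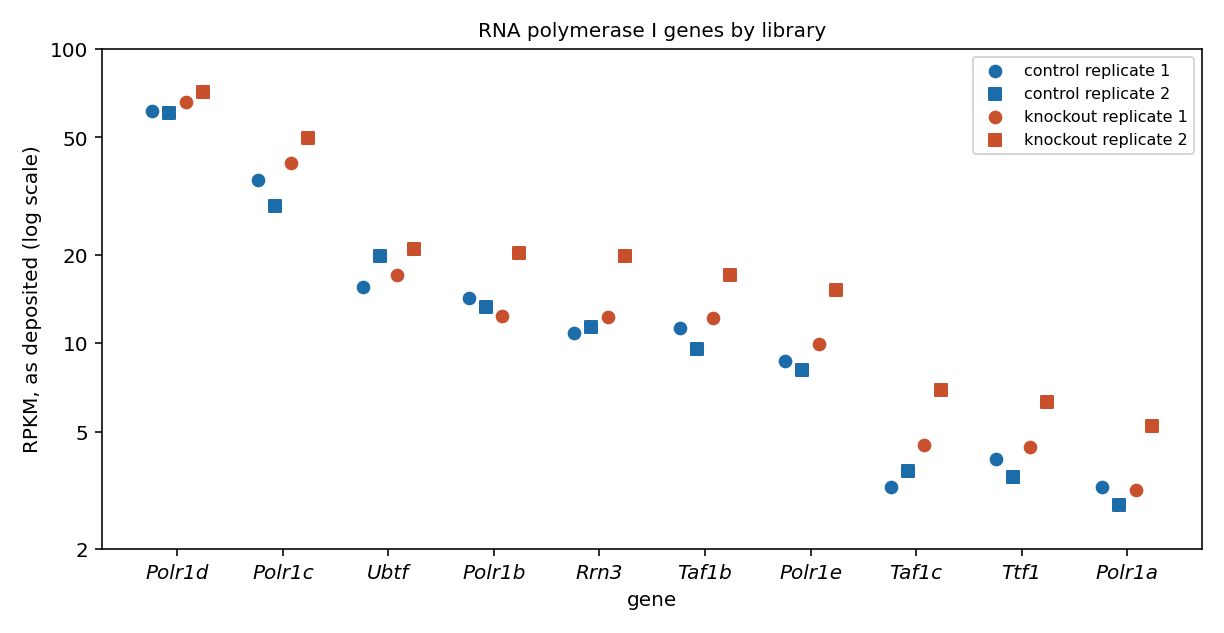
RPKM of the 10 genes in each library on a log axis, ordered by mean level, with circles for replicate 1 and squares for replicate 2. Knockout replicate 2 is the highest library for all 10 genes, while knockout replicate 1 is above both controls for 7 of them.

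The catalytic core is formed by the 2 largest subunits. Polr1a (ENSMUSG00000049553, chromosome 6, 71909053 to 71984935, plus strand, mm10), which encodes the largest subunit, stood at 3.26 and 2.83 RPKM in control replicates 1 and 2 and at 3.18 and 5.23 RPKM in knockout replicates 1 and 2. Knockout replicate 1 lay between the controls, so the groups overlapped, and the log2 fold change was 0.34 (SE 0.34, limma adjusted p = 0.526). Polr1b (ENSMUSG00000027395, chromosome 2, 129100995 to 129126594, plus strand), the second-largest subunit, stood at 14.2 and 13.3 RPKM in control and at 12.4 and 20.2 RPKM in knockout libraries. Here knockout replicate 1 was below both controls and knockout replicate 2 above both, and the log2 fold change was 0.19 (SE 0.26, adjusted p = 0.616). Rescaled, Polr1b stood at 15.7 and 15.4 RPKM in control and at 12.8 and 15.5 RPKM in knockout libraries, with a log2 fold change of -0.14 (SE 0.13). Rescaled Polr1a had 3.60 and 3.25 RPKM against 3.26 and 4.01 RPKM, and 0.06 (SE 0.14). Exons of Polr1a share 185 bases, or 1.6%, with those of Gm26628.

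Polr1c and Polr1d form the pair of subunits on which the enzyme is assembled, and RNA polymerase III uses the same pair. Polr1c (ENSMUSG00000067148, chromosome 17, 46243920 to 46248054, minus strand) stood at 35.9 and 29.3 RPKM in control and at 41.0 and 49.9 RPKM in knockout libraries, and the groups did not overlap. It had the smallest p-value of the 10 (log2 fold change 0.47, SE 0.20, limma adjusted p = 0.229), and its mean went from 32.6 ± 4.62 to 45.5 ± 6.29 RPKM (SD, n = 2 per group). Polr1d (ENSMUSG00000029642, chromosome 5, 147077050 to 147111597, plus strand) varied least over the deposited values, at 61.7 and 60.4 RPKM in control and 66.1 and 71.6 RPKM in knockout libraries. Its log2 fold change was 0.17 (SE 0.19, adjusted p = 0.557, 95% interval -0.20 to 0.54). Rescaling lowered both alike. Polr1c then overlapped, at 39.6 and 33.8 RPKM in control and 42.0 and 38.2 RPKM in knockout (log2 fold change 0.13), and Polr1d was below both controls in both knockout libraries, at 68.2 and 69.6 against 67.8 and 54.8 RPKM (log2 fold change -0.17, adjusted p = 0.593). The difference between the pair was not tested.

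Polr1e encodes a subunit of the heterodimer that helps the enzyme start and elongate. Polr1e (ENSMUSG00000028318, chromosome 4, 45018583 to 45036565, plus strand) stood at 8.68 and 8.13 RPKM in control and at 9.95 and 15.2 RPKM in knockout libraries. The groups did not overlap before rescaling, with a log2 fold change of 0.50 (SE 0.29, limma adjusted p = 0.352), nor after it, at 9.59 and 9.36 against 10.2 and 11.7 RPKM (0.18, adjusted p = 0.456).

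Among the initiation factors, Ubtf (ENSMUSG00000020923, chromosome 11, 102304560 to 102319742, minus strand) had the fold change nearest to 0 in the deposited values. It stood at 15.5 and 19.8 RPKM in control and at 17.1 and 20.9 RPKM in knockout libraries, so knockout replicate 1 lay between the controls. The controls differed from each other by more than the group means (17.6 ± 3.03 and 19.0 ± 2.69 RPKM), and the log2 fold change was 0.10 (SE 0.24, limma adjusted p = 0.772) and -0.23 (SE 0.16) after rescaling, then the farthest below 0 of the 10. Rrn3 (ENSMUSG00000022682, chromosome 16, 13780708 to 13814839, plus strand), the gene whose window holds the 2 E-boxes, stood at 10.8 and 11.4 RPKM in control and at 12.3 and 19.8 RPKM in knockout libraries. Knockout replicate 2 was set well apart, 1.61 times replicate 1, and the log2 fold change was 0.46 (SE 0.26, adjusted p = 0.356). Rescaled values of 11.9 and 13.1 against 12.6 and 15.2 RPKM overlapped, with a log2 fold change of 0.14 (SE 0.13).

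Both SL1 subunit genes among the members were above the controls in both knockout libraries on either scale, Taf1b by a narrow margin after rescaling (12.5 and 11.0 against 12.5 and 13.1 RPKM). Taf1b (ENSMUSG00000059669, chromosome 12, 24498359 to 24558539, plus strand), whose protein contacts the polymerase recruitment machinery, stood at 11.3 and 9.54 RPKM in control and 12.2 and 17.1 RPKM in knockout libraries (log2 fold change 0.44, SE 0.27, limma adjusted p = 0.375, and 0.12 after rescaling). Taf1c (ENSMUSG00000031832, chromosome 8, 119597871 to 119605222, minus strand) stood at 3.26 and 3.67 RPKM in control and at 4.52 and 6.96 RPKM in knockout libraries. It had the highest fold change of the 10 before and after rescaling, at 0.57 (SE 0.34, adjusted p = 0.362, 95% interval -0.09 to 1.23) and 0.28 (SE 0.13, adjusted p = 0.352). Of its exon bases 584, or 16.7%, are shared with Dnaaf1 on the opposite strand, and reads there cannot be told apart because the kit does not mark strand. Dnaaf1 is not listed in the table used here.

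Ttf1 (ENSMUSG00000026803, chromosome 2, 29060262 to 29087656, plus strand), the terminator-binding factor, stood at 4.04 and 3.52 RPKM in control and at 4.45 and 6.32 RPKM in knockout libraries. Both knockout libraries were above both controls, also after rescaling (4.47 and 4.05 against 4.56 and 4.84 RPKM), with log2 fold changes of 0.40 (SE 0.34, limma adjusted p = 0.468) and 0.12 (SE 0.12).

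**Figure D2:**
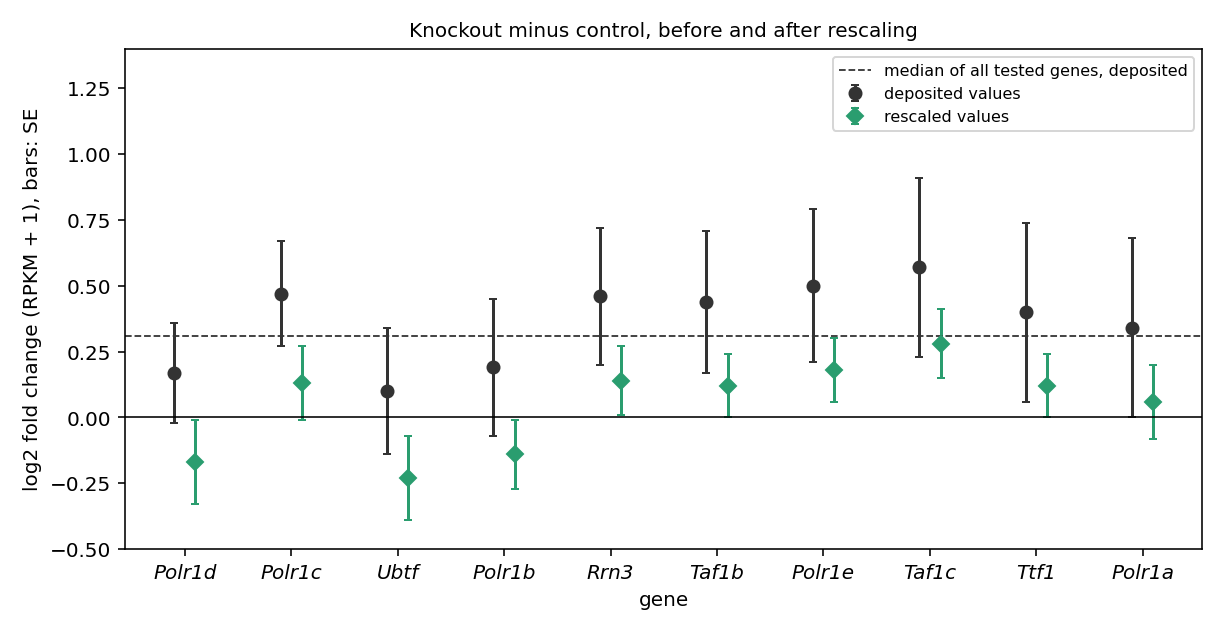
Log2 fold change of each gene, knockout minus control on log2(RPKM + 1), with SE bars, for deposited values (circles) and rescaled values (diamonds), the dashed line being the deposited median of all tested genes (0.31). All 10 circles lie above 0, while Polr1d, Ubtf and Polr1b fall below 0 once rescaled.

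The 2 knockout libraries differed from each other. All 10 were higher in knockout replicate 2 than in replicate 1, by 1.08 times for Polr1d up to 1.65 times for Polr1a, and 84.7% of all tested genes were higher there too, with a median ratio of 1.35 beside 1.48 for the members. Against the control mean, the members had medians of 0.17 in replicate 1 and 0.62 in replicate 2 on the log2 scale, beside 0.12 and 0.50 for all genes. Polr1d and Ubtf lay below the all-gene median in both libraries (0.11 and 0.23, and -0.04 and 0.24). In contrast, Polr1c (0.33 and 0.61), Polr1e (0.22 and 0.79), Taf1b (0.22 and 0.67), Taf1c (0.31 and 0.84), Rrn3 (0.14 and 0.78) and Ttf1 (0.19 and 0.62) lay above it in both. The 10 genes had 635 to 5862 reads per library, which gives a counting error of 3.97% to 1.31%, below the gap between the knockout libraries for each of the 10, and it covers counting error only.

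**Figure D3:**
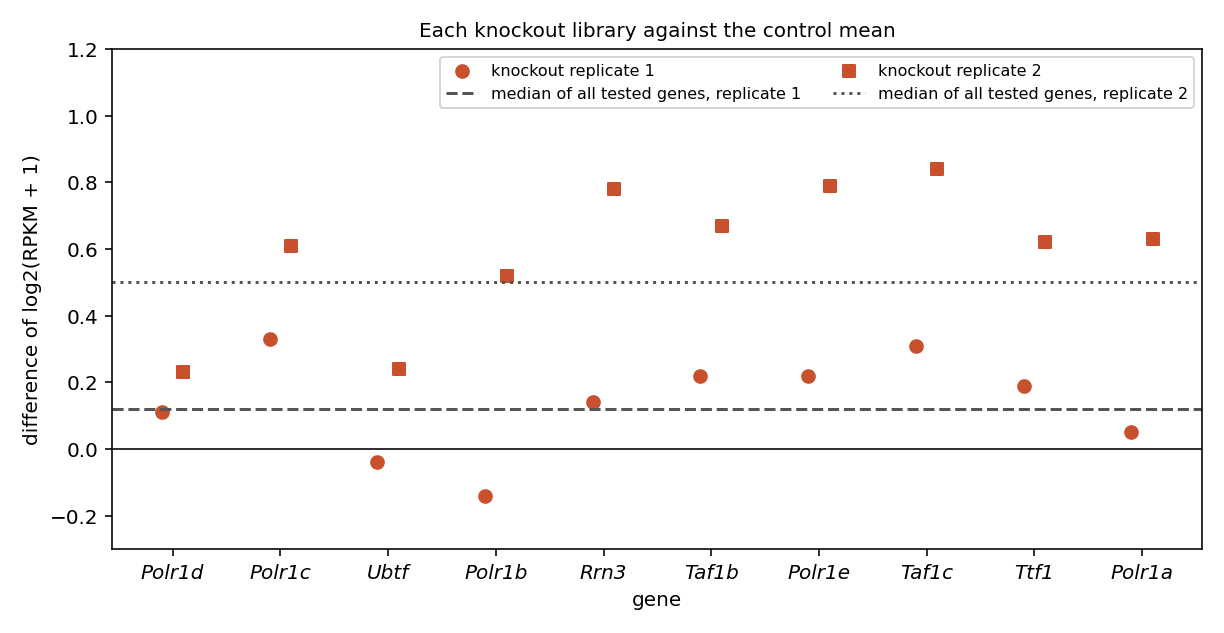
Difference of log2(RPKM + 1) from the control mean for each gene in knockout replicate 1 (circles) and replicate 2 (squares), with the medians of all tested genes at 0.12 (dashed) and 0.50 (dotted). The squares lie above the circles for all 10 genes.

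The number of calls depended on which library was left out, for the members and for the whole table alike. Without knockout replicate 1, 8 of the 10 genes were called higher by limma, all but Polr1d and Ubtf, in a setting where 54.3% of all tested genes were called higher, so the count is read against that share. In that setting the median log2 fold change was 0.62 for the members and 0.50 for all genes, and the lone knockout library is assumed to vary like the controls. Leaving out knockout replicate 2, control replicate 1 or control replicate 2 gave member medians of 0.17, 0.46 and 0.33. The medians of all tested genes were 0.12, 0.33 and 0.28 in these settings. Few genes of the whole table were called there, so the lack of member calls says little about the members. An exact permutation test of 2 libraries against 2 cannot give a two-sided p below 0.333.

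After rescaling, both knockout libraries stood above both controls for 4 of the 10 (Polr1e, Taf1b, Taf1c and Ttf1), beside 29.1% of all tested genes, and below both for 1 (Polr1d), beside 25.2%. The summed level of the 10 genes was 169 and 162 RPKM in control and 183 and 233 RPKM in knockout libraries. After rescaling the sums were 186 and 186 RPKM in control and 188 and 179 RPKM in knockout libraries, so the 4 sums lay close together. Rescaling centres the bulk of genes, so this closeness is partly set by the scaling and is not a result about the 10 genes.

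Shares within that sum do not depend on how a library is scaled. Polr1d made up 36.6% and 37.3% of the sum in control and 36.1% and 30.7% in knockout libraries, below both controls. Taf1c made up 1.94% and 2.27% in control and 2.46% and 2.99% in knockout libraries, and Polr1e 5.15% and 5.02% against 5.43% and 6.52%. The shares of Polr1c (21.3% and 18.1% against 22.4% and 21.4%) and Ttf1 (2.40% and 2.17% against 2.43% and 2.71%) were also above both controls. Of these 4 higher shares only that of Polr1e cleared the controls by more than the gap between the control libraries. The lower share of Polr1d did not, with 36.1% in knockout replicate 1 close below 36.6% in control replicate 1. With 2 libraries per group an exact permutation test cannot give a two-sided p below 0.333. Lack of overlap alone therefore does not show that a share changed. Shares of Polr1a, Polr1b, Ubtf, Rrn3 and Taf1b overlapped between groups. Ubtf ranged widest among these, with 9.19% and 12.2% in the control and 9.31% and 8.95% in the knockout libraries. The shares sum to a fixed total, so a lower share of Polr1d raises the others, and they were not tested.

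**Figure D4:**
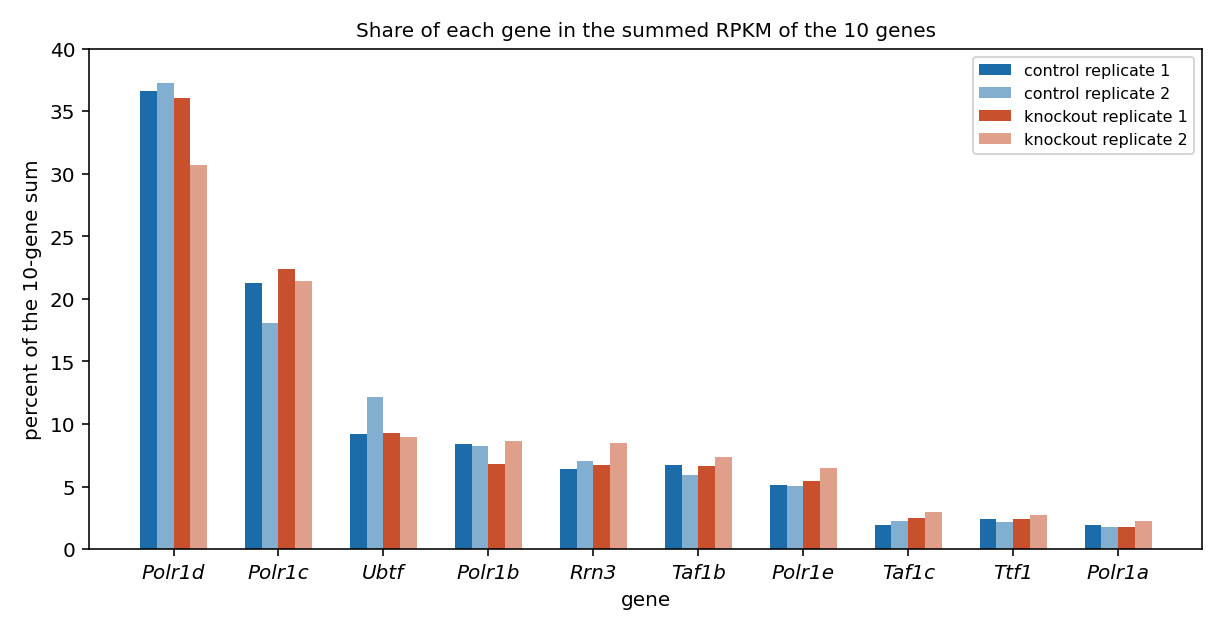
Percent of the summed RPKM of the 10 genes taken by each gene, 1 bar per library. Polr1d takes between 30.7% and 37.3%, the lowest in knockout replicate 2.

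The remaining polymerase I and SL1 genes gave like values, with 0 of 6 called, beside 3.33% called higher and 0.86% lower over all tested genes. Their median log2 fold change was 0.34, and 0.04 after rescaling. Both knockout libraries stood above both controls for 4 of 6, beside 55.5% of all tested genes. After rescaling 2 of the 6 were above and 1 below, beside 29.1% and 25.2%. Taf1a, another SL1 subunit, stood at 3.83 and 3.72 RPKM in control and at 5.09 and 7.10 RPKM in knockout libraries (log2 fold change 0.56, SE 0.33, limma adjusted p = 0.370), and 0.27 after rescaling, values next to those of Taf1c. Taf1d, by contrast, overlapped in the deposited values, at 11.9 and 10.6 against 10.6 and 13.6 RPKM (0.09). After rescaling it had -0.23, with both knockout libraries below both controls. Znrd1, a small subunit for transcript cleavage, went from 26.4 ± 0.370 to 36.2 ± 6.48 RPKM (0.43, SE 0.21, adjusted p = 0.301, and 0.09 after rescaling). Twistnb, the stalk subunit that Rrn3 binds, had 0.34 (adjusted p = 0.446, and 0.01 after rescaling), and Cd3eap, the partner of Polr1e, had 0.21 (adjusted p = 0.604), which turned to -0.11 after rescaling. Tbp, which the other polymerases also use, had 0.34 (adjusted p = 0.524, and 0.07 after rescaling).

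Among the neighbouring lists limma called no gene in either direction, in 62 tested genes of 6 lists. Over all tested genes 3.33% were called higher and 0.86% lower. An unadjusted p under 0.05 was found for 5 of 62, against 1908 of 11742 over all genes. Voom called 0 of the listed genes, beside 52 higher and 22 lower of 11734 genes. For 5 shared subunits of all 3 polymerases the median was 0.21, with Polr2e (0.42, SE 0.19, limma adjusted p = 0.252) and Polr2h (0.34, adjusted p = 0.362) having the smallest p-values. The 7 RNA polymerase II subunits had a median of 0.34, led by Polr2i (0.39, adjusted p = 0.356) and Polr2d (0.34, adjusted p = 0.369). For the 22 RNA polymerase III subunits and factors, the median was also 0.34, and all 22 were above 0, as were 9762 of the 11742 tested genes. Gtf3c5 (0.58, SE 0.25, adjusted p = 0.225) and Gtf3c1 (0.69, SE 0.32, adjusted p = 0.270), subunits of the factor that recognises tRNA promoters, had the smallest p-values there. Regulators of ribosomal DNA (16 of 17 listed, without Ubtfl1) had a median of 0.20 and ran from -0.24 to 0.50, with 13 of 16 above 0. Nop53 (0.34, adjusted p = 0.360) and Kdm2a (0.50, adjusted p = 0.403) had their smallest p-values. Rescaled, these regulators ran from -0.58 to 0.21, with 6 of 16 above 0. Both rescaled knockout libraries then stood below both controls for 5 of the 16, beside 25.2% of all tested genes, and above both for 0, beside 29.1%. Heatr1, Nol11, Utp4, Utp15, Wdr43 and Wdr75, processing proteins that also act in transcription of the precursor, had a median of 0.22, led by Nol11 (0.36, adjusted p = 0.397) and Wdr75 (0.39, adjusted p = 0.404). After rescaling the medians of these 5 lists lay between -0.13 for the shared subunits and 0.03 for the RNA polymerase III list, beside 0.12 for the 10 members.

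The 3 protein-coding genes outside all lists whose profile over the 4 libraries was most like the median profile of the members were Zfp934, Taok3 and Zfp277. Likeness was the Euclidean distance between deviations of log2(RPKM + 1) from a gene's own mean, which was 0.0352, 0.0360 and 0.0376. Zfp934 stood at 3.20 and 2.89 RPKM in control and 3.47 and 5.22 RPKM in knockout libraries. Among the members themselves Ttf1 was closest to that median profile (0.054) and Ubtf farthest (0.444). With 4 libraries this describes the pattern of a raised knockout replicate 2 that most genes shared.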

How the data were processed

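RNA of 2 control and 2 knockout libraries was analysed from 1 deposited table of RPKM values, a unit identified here from the values. Multiplied by the longest GENCODE M21 transcript of the gene and divided by the worth of a single read, a value gave a whole number within 0.1 for 99.34% to 99.40% of values above 0.001, the value of a gene without reads. Per the submitters' processing notes, the authors used mm10. No source used here names the aligner, counter or strand setting. Symbols matched 12381 of 12390 gene IDs. The lowest maximum over the libraries was 1.0063 RPKM, so genes low everywhere are outside the table.

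Groups and replicate numbers came from the titles. Genotype was fitted to log2(RPKM + 1) by limma (version 3.58.1, R 4.3.3, with a mean-variance trend and 2 residual degrees of freedom) over the 11742 genes averaging 1 RPKM or more, with Benjamini-Hochberg adjustment over all of them and a threshold of 0.05. In this fit of the deposited values the prior degrees of freedom were infinite, so its SEs follow the trend and not each gene's own spread. The prior degrees of freedom of the rescaled fit were not examined. Rescaling used TMM-type factors (30% of M and 5% of A values trimmed) from the recovered reads. Replicate reads differed beyond counting noise (chi-square per degree of freedom 48.5 for control, 150.0 for knockout). The members and lists were chosen with earlier results of these data known. Named genes are all members, Ddx21, the other polymerase I and SL1 genes, the 2 smallest p-values of each list without calls, and the 3 genes closest to the members' median profile. Alternatives were quantile normalization, a pseudocount of 0.1, no filter, voom, a replicate block and leaving out each library.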

Additional observations from a re-analysis of the deposited data

How the results depend on the processing

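None of the 10 members was called under TMM-type rescaling, quantile normalization, a pseudocount of 0.1, no filter, voom or the replicate block. Quantile normalization called 0 and rescaling 1 of 11742 genes, so 0 member calls in those settings say little about the members. Over all genes a pseudocount of 0.1 called 402 higher and 107 lower, and no filter 439 and 114 of 12390. When each library was left out in turn, the members called higher ranged from 0 to 8 and the genes of the related lists called higher from 0 to 37, each maximum without knockout replicate 1, where 6381 of 11742 genes were called higher. This range of calls followed that of the whole table and says little about the members. Leaving out a library leaves 1 sample in a group, assumed to vary like the other group. Log2 fold changes turned below 0 for Polr1b (-0.14), Polr1d (-0.17) and Ubtf (-0.23) after rescaling. With voom the same 3 had -0.14, -0.16 and -0.22. Quantile normalization gave -0.01 for Polr1a, -0.09 for Polr1b and -0.17 for Ubtf. Leaving out single libraries gave -0.06 (without control replicate 1) to 0.27 for Ubtf, with -0.04 without knockout replicate 2, and -0.14 (without knockout replicate 2) to 0.52 for Polr1b. None of the values below 0 passed the threshold. Calls over all genes numbered 391 higher and 101 lower as deposited, 1 and 0 after rescaling, 0 and 0 with quantile normalization, and 52 and 22 with voom, which changes the weighting as well as the scaling.

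The replicate block called 0 members and 0 genes of the related lists, and 175 genes higher and 64 lower over the table. Same-numbered libraries deviated together with a correlation of 0.0668 over 11742 genes, so the numbers do not show a pairing. Ddx21 was past the threshold with voom (-1.20, adjusted p = 0.0277) and without knockout replicate 1 (-0.72, adjusted p = 0.0180).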
